A study of Mus musculus with 123 samples.

Results

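Cholesterol is built from acetyl-CoA in a chain of enzymes that first makes mevalonate and isoprenoid units, then squalene, and then closes and trims the sterol rings. Fatty acids are made from the same acetyl-CoA by carboxylation, chain building, elongation and desaturation. Both routes are under the control of the SREBP transcription factors, which SCAP carries from the endoplasmic reticulum for cleavage when sterols are low and which the INSIG proteins hold back when sterols are high. Here 30 genes of these routes were followed in single mouse embryos, of 29022 genes in the table of unique molecular identifiers (UMIs, 1 count per captured RNA molecule). They are listed by name and role and comprise 7 genes of the mevalonate segment (Acat2, Hmgcs1, Mvk, Pmvk, Mvd, Idi1 and Fdps), 11 genes from squalene to cholesterol (Fdft1, Sqle, Lss, Cyp51, Tm7sf2, Msmo1, Nsdhl, Hsd17b7, Ebp, Sc5d and Dhcr7), 5 regulators (Srebf1, Srebf2, Scap, Insig1 and Insig2), 1 intracellular sterol carrier (Stard4), and 6 genes of fatty acid synthesis (Acly, Acaca, Fasn, Elovl6, Scd1 and Scd2). All 30 were detected and all 30 were among the genes tested.

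RNA was read from 123 single embryos or inner cell masses (ICMs) in 16 groups, in a line for Oct4 (gene Pou5f1) and a line for Sox2. In knockout (KO) embryos the maternal copy was deleted and the paternal copy was a null allele. Females homozygous for the floxed gene and carrying Zp3-Cre, which acts in the growing oocyte, were mated with Oct4 +/mKO2 or Sox2 +/EGFP males, whose reporter allele is a null of the gene. Control (Ctrl) embryos came from the same crosses, lacked the maternal gene and kept 1 intact paternal allele without reporter. A further group, labelled MWT, was read as the study's wild type, in which the mother's gene was intact. Morulae were taken whole at E2.75. Inner cell masses of early (E3.75) and late (E4.5) stage were isolated by immunosurgery after culture from the morula with 1 μM PD0325901, a MEK inhibitor that suppresses primitive endoderm. The protocol names the inhibitor for all ICMs and the sample labels for all but the 5 Oct4 MWT early ICMs, so their exposure is less certain. The embryos had the background B6C3F1 per the labels. Each group held 8 embryos except Oct4 MWT, with 7 morulae, 5 early and 8 late ICMs, and Sox2 MWT, with 7 early ICMs. For the early and late ICMs of Oct4 MWT the title and the source name of the samples disagreed on the stage, and the title was used. Each embryo is a separate library, and the labels do not tie embryos to litters.

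The libraries held 525755 to 1344035 UMIs per embryo. The check of the targeted gene stood as labelled: over the 8 embryos of a group, Pou5f1 summed to 3, 7 and 1 UMIs in Oct4 KO morulae, early and late ICMs and to 163, 550 and 236 UMIs in Oct4 Ctrl. Sox2 summed to 14, 176 and 108 UMIs in Sox2 KO and to 123, 800 and 1274 UMIs in Sox2 Ctrl, lower in KO at each stage though not absent. Levels are given in CPM, the usual count-per-million scale, with library totals adjusted by the trimmed mean of M-values (TMM), as mean ± SD with n = 8 embryos unless another n is given. As each UMI counts 1 molecule at its 3′ end, CPM was not divided by transcript length. "Passed" below means a Benjamini-Hochberg adjusted p under 0.05 over all genes tested in edgeR's quasi-likelihood test, and "called" means that the absolute log2 fold change was also at least 1. Counts of members from DESeq2 are of those called by both limits, a stricter rule than passing. ± after a log2 fold change is its standard error. As whole morulae and whole ICMs were read, fewer cells of a type and less RNA per cell cannot be told apart.

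SREBPs bind sterol response elements close to the start of their target genes, usually beside sites for NF-Y (which reads the CCAAT box) and SP1 (which reads the GC box), so the promoters of the members are shown before their values. RefSeq gave a promoter for 24 of the 30 members (build GRCm38.p6). Fdps, Fdft1, Sqle, Stard4, Scd1 and Scd2 had no entry. The 250 bases before each listed start were searched on both strands for the sterol response element TCACNCCAC, the inverted CCAAT box ATTGG, the GC box GGGCGG and the E-box CACGTG. None of these motifs contains another, and a gene with several starts was counted once. The sterol response element in this exact form was found in 1 of 24 members (4.17%), against 1.22% of the 27025 genes in the table. The inverted CCAAT box was found in 19 of 24 (79.2%), against 37.5% of all genes, and the GC box in 20 of 24 (83.3%), against 35.4%. The E-box was found in 5 of 24 (20.8%), against 6.86% of all genes. The 27025 genes include many that were not among the 14053 genes tested in the embryos. Shares among tested genes alone were not counted, so the contrasts are not read as particular to these routes.

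Hmgcs1 (HMG-CoA synthase) is shown because it held the exact sterol response element, and Srebf2, Insig1, Ebp and Tm7sf2 are shown because they were called in at least 1 KO comparison and have a single listed start. Each sequence runs 5′ to 3′ along the gene, ends at the base before the start listed by RefSeq, and has every match to any of the 4 motifs, in either orientation, in capitals.
Hmgcs1, chr13:119690101-119690350, plus strand: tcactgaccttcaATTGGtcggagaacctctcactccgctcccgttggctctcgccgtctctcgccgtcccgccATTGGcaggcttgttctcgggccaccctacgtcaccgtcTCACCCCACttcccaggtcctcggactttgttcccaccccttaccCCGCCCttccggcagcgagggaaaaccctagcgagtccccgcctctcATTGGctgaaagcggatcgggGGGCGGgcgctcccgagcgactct
Srebf2, chr15:82147019-82147268, plus strand: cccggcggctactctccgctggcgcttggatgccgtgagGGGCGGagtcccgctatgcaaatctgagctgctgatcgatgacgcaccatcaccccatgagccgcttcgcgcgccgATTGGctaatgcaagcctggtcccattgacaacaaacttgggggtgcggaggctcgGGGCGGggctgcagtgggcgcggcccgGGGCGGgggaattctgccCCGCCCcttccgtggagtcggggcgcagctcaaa
Insig1, chr5:28071162-28071411, plus strand: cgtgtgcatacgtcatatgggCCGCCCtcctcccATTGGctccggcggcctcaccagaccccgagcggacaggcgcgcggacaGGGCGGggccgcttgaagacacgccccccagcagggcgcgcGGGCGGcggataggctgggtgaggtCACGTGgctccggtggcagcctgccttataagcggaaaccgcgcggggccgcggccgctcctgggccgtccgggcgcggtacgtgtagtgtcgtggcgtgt
Ebp, chrX:8193513-8193762, minus strand: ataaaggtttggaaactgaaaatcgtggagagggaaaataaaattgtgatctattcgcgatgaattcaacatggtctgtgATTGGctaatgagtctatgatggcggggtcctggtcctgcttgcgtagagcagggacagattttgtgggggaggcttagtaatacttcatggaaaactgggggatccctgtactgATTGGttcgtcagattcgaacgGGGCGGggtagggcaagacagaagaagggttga
Tm7sf2, chr19:6067851-6068100, minus strand: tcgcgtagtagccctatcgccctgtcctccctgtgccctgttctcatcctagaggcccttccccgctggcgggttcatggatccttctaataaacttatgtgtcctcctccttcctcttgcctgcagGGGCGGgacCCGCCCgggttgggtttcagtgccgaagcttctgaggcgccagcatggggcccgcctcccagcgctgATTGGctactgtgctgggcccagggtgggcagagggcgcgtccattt

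The RefSeq start is not always the outer end of the counted gene: the stretch of Tm7sf2 lies wholly inside the gene's extent in the deposited table, those of Srebf2 and Insig1 end inside it, that of Ebp ends at its edge and that of Hmgcs1 ends before it. Positions are counted back from the RefSeq start, so that -1 is the last base shown. In Hmgcs1 the sterol response element began at -137, with GC boxes at -92 and -24 and inverted CCAAT boxes at -237, -176 and -45. The other 4 promoters each held at least 1 inverted CCAAT box and 1 GC box, the nearest to the start at -135 and -34 in Srebf2, -216 and -126 in Insig1, -55 and -33 in Ebp and -47 and -114 in Tm7sf2. Insig1 also held an E-box at -101. A match is a run of letters and not a measured binding site, and no binding was measured here.

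The genes of the named members lie, in mm10, at chr15:82147181-82205379 (Srebf2, plus strand), chr5:28071363-28078662 (Insig1, plus), chr7:143823145-143848410 (Dhcr7, plus), chrX:8185329-8193512 (Ebp, minus), chr19:6062821-6068373 (Tm7sf2, minus), chr17:12942890-12960747 (Acat2, minus) and chr11:60199089-60222581 (Srebf1, minus), and Stard4 lies on chromosome 18. The extents in the table equalled those of GENCODE vM21 for all 30 members. Reads of overlapping genes could have been assigned either way. Tm7sf2 overlaps Vps51 and Fdps overlaps Gm43738 on the same strand, while Srebf1 overlaps Rai1, Cyp51 overlaps Akap9 and Fdft1 overlaps Ctsb on the opposite strand. Whether strand was used in counting was not given in the sources used here.

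Among the members, Elovl6, which elongates saturated and monounsaturated fatty acids, had the highest mean level in each of the 16 groups, between 299.9 and 754 CPM. Scd2, a stearoyl-CoA desaturase, was second in 13 of them. Tm7sf2, a sterol C14-reductase, was the lowest in 14 groups and Stard4 in the other 2. Group means of Tm7sf2 ran from 0.13 to 6.19 CPM, and 78 of 123 embryos had at least 1 UMI of it. Transcripts of the whole set summed to 1617 ± 180 CPM in Oct4 Ctrl morulae, 2090 ± 207 in early ICMs and 1541 ± 188 in late ICMs.

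How these genes change as the morula gives rise to the ICM was read from the Ctrl embryos. Morulae had no culture with the inhibitor and no immunosurgery whereas ICMs had both, so stage, culture, inhibitor and the removal of trophectoderm cannot be told apart in these comparisons. Between morula and early ICM the regulators moved in opposite ways in both lines. Srebf2, the SREBP that chiefly drives the cholesterol genes, rose, and Scap, which escorts the SREBPs, fell. The carrier Stard4 fell in both lines and the fatty acid elongase Elovl6 rose in both.

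Srebf2 in the Oct4 line had a lowest, median and highest level of 0.934, 2.17 and 7.84 CPM in Ctrl morulae, 7.67, 14.1 and 25.0 CPM in early ICMs and 23.4, 49.6 and 112 CPM in late ICMs. It rose by a log2 fold change of 1.89 ± 0.54 (adjusted p = 0.00239), though it was not called with counts thinned to the lowest total, and then by 2.04 ± 0.40 (adjusted p = 1.99e-05). In the Sox2 line the same 3 values were 0.811, 3.40 and 8.17 CPM in Ctrl morulae and 35.9, 69.0 and 88.1 CPM in early ICMs, a log2 fold change of 4.09 ± 0.46 (adjusted p = 6.3e-13). The morulae and early ICMs of the Sox2 line did not overlap, whereas those of the Oct4 line overlapped at their edges. From early to late ICM in the Sox2 line Srebf2 had a log2 fold change of 0.56 ± 0.33 (adjusted p = 0.335) and a late mean of 101 ± 24.9 CPM.

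Scap ran from 59.8 to 87.3 CPM in Oct4 Ctrl morulae and from 20.2 to 39.2 CPM in early ICMs, with a log2 fold change of -1.42 ± 0.16 (adjusted p = 2.48e-12). In the Sox2 line it ran from 58.3 to 112 CPM and from 21.5 to 49.2 CPM, with a log2 fold change of -1.05 ± 0.16 (adjusted p = 9.77e-09). In neither line did the stages overlap. Srebf1, the SREBP gene that favours fatty acid synthesis, rose by 0.50 ± 0.21 and 0.73 ± 0.20 on the log2 scale in the Oct4 and Sox2 lines (adjusted p = 0.0398 and 0.0018), and by 0.55 ± 0.20 from early to late ICM in the Oct4 line (adjusted p = 0.0295). Insig1 and Insig2 did not pass in any of the 4 stage comparisons, with log2 fold changes of Insig1 of -0.74 ± 0.35 and 0.72 ± 0.33 from morula to early ICM in the Oct4 and Sox2 lines.

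Stard4, whose protein ferries cholesterol between membranes through the cytosol, was among the members of largest change. It had a lowest, median and highest level of 29.4, 50.1 and 83.8 CPM in Oct4 Ctrl morulae and 3.63, 8.16 and 15 CPM in early ICMs, a log2 fold change of -2.62 ± 0.43 (adjusted p = 2.13e-07). In Sox2 Ctrl the levels were 22.7, 43.3 and 112 CPM and 0, 5.27 and 13.3 CPM, a log2 fold change of -3.15 ± 0.45 (adjusted p = 3.22e-09). Every early ICM was below every morula of its line. It stayed low in late Ctrl ICMs, at 3.44 ± 2.91 CPM in the Oct4 line and 6.84 ± 7.25 CPM in the Sox2 line.

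In Oct4 Ctrl, 4 of the 30 members were called higher in early ICMs than in morulae, beside 14.1% of all 14053 genes tested, and 6 were called lower, beside 14.9%. Passing were 6 higher and 8 lower, beside 23.8% and 24.3% of all genes. Of the 11 genes from squalene to cholesterol, 2 passed in the upward direction and 5 in the downward direction. The synthase Fdft1, which joins farnesyl units into squalene, fell from 157 ± 83.6 to 48.0 ± 15.2 CPM, the epoxidase Sqle from 28.3 ± 8.81 to 7.74 ± 2.98 CPM, and the demethylase Cyp51 from 10.5 to 2.63 CPM on average. Their log2 fold changes were -1.72 ± 0.29, -1.86 ± 0.46 and -1.94 ± 0.55. The cyclase Lss (-0.67 ± 0.22) and the ketoreductase Hsd17b7 (-0.93 ± 0.30) also fell, while the sterol isomerase Ebp rose from 70.3 ± 18.4 to 148 ± 53.9 CPM (1.06 ± 0.28) and Tm7sf2 rose from 0.13 to 1.28 CPM (2.37 ± 0.93). The rise of Tm7sf2 rests on 1 UMI over the 8 morulae and 9 UMIs over the 8 early ICMs, and it was not called without the filter on low counts. Of the mevalonate segment 1 of 7 passed, with Mvd (mevalonate diphosphate decarboxylase) at -1.28 ± 0.34.

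In the 6 fatty acid genes the rise in the Oct4 line lay in Scd2 and Elovl6. Scd2 went from 32.5, 79.7 and 167 CPM (lowest, median and highest) in morulae to 218, 376 and 505 CPM in early ICMs and back to 117, 151 and 273 CPM in late ICMs. The log2 fold changes were 2.07 ± 0.27 (adjusted p = 1.98e-10) and -1.22 ± 0.26 (adjusted p = 9.92e-05). Elovl6 went from 363 ± 99.9 to 720 ± 63.6 and to 371 ± 77.1 CPM, and its early ICMs lay above every morula and every late ICM. The 6 genes together summed to 702 ± 96.5 CPM in morulae, 1366 ± 157 in early ICMs and 792 ± 91.8 in late ICMs.

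From early to late ICM in Oct4 Ctrl, 5 members were called higher, beside 9.52% of all genes, and 2 were called lower, beside 6.04%. Sqle rose to 33.6 ± 16.5 CPM (2.12 ± 0.46, adjusted p = 0.000125), Mvk (mevalonate kinase) rose from 9.68 ± 2.78 to 26.2 ± 8.44 CPM (1.44 ± 0.30, adjusted p = 5.79e-05), and Mvd rose by 1.21 ± 0.35 and Tm7sf2 by 1.69 ± 0.63 on the log2 scale. Srebf2 was the fifth. Ebp fell to 73.1 ± 26.4 CPM (-1.0 ± 0.29), and Dhcr7, the last reductase of the pathway, fell from 74.7 ± 24.0 to 38.3 ± 14.8 CPM (-0.96 ± 0.24, adjusted p = 0.00113). Of the 12 members that passed, 8 were higher and 4 were lower in late ICMs, beside 17.2% and 15.2% of all genes.

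In Sox2 Ctrl, 9 members were called higher in early ICMs than in morulae, beside 17.2% of all genes, and 2 were called lower, beside 14.7%. Passing were 14 higher and 3 lower, beside 26.6% and 25.2% of all genes. The mevalonate segment summed to 205 ± 38.4 CPM in morulae and 367 ± 86.4 CPM in early ICMs, and 5 of its 7 genes passed, all higher. Mvk rose from 2.63, 5.47 and 9.39 CPM (lowest, median and highest) to 16.4, 22.3 and 42.8 CPM, with no overlap (log2 fold change 2.16 ± 0.31, adjusted p = 3.3e-09). Fdps, which makes farnesyl diphosphate, rose by 1.41 ± 0.32 and Mvd by 1.22 ± 0.30. Nsdhl, a sterol dehydrogenase on the X chromosome, rose from 2.89 ± 2.29 to 15.7 ± 9.08 CPM (2.45 ± 0.37, adjusted p = 1.79e-08). Ebp, Sc5d, Tm7sf2 and Scd1 were called higher as well. Fdft1 and Sqle, which fell in the Oct4 line, had log2 fold changes of -0.44 and -0.01 and did not pass.

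From early to late ICM in Sox2 Ctrl no member was called or passed in edgeR, beside 1.94% of all genes called higher and 0.961% called lower (3.36% and 3.85% passing). At an unadjusted p under 0.05, 4 members were higher and 0 lower, beside 1482 and 1473 of all 14053 genes, and DESeq2 called 0. The lines were bred and collected separately, so a difference between Oct4 Ctrl and Sox2 Ctrl cannot be told apart from line or collection, and it was not tested.

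Markers of cell types moved with stage as well, in lists of 10 for epiblast (Nanog, Sox2, Pou5f1, Fgf4, Klf2, Esrrb, Tdgf1, Gdf3, Tfcp2l1 and Dppa3), trophectoderm (Cdx2, Gata3, Eomes, Elf5, Tfap2a, Krt8, Krt18, Tead4, Krt7 and Hand1) and primitive endoderm (Gata4, Gata6, Sox17, Sox7, Foxa2, Pdgfra, Lama1, Col4a1, Dab2 and Lrp2, all but Sox7 and Foxa2 tested). In Oct4 Ctrl from morula to early ICM 8 epiblast markers passed higher and 0 lower, with 1 and 3 for trophectoderm and 4 and 2 for primitive endoderm. From early to late ICM the counts were 4 and 4, 1 and 1, and 4 and 2. The primitive endoderm sum was 957 ± 116, 761 ± 114 and 737 ± 411 CPM in Oct4 Ctrl morulae, early and late ICMs. In Sox2 Ctrl from morula to early ICM the counts were 6 and 2, 0 and 7, and 4 and 2, while the sums, which were not tested, went from 5075 ± 635 to 3798 ± 618 CPM for epiblast, 752 ± 103 to 390 ± 139 CPM for trophectoderm and 1065 ± 124 to 666 ± 220 CPM for primitive endoderm. From early to late ICM they were 2 and 0, 3 and 0, and 3 and 0. The part of these cell types in the members' values was not tested.

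**Figure D1:**
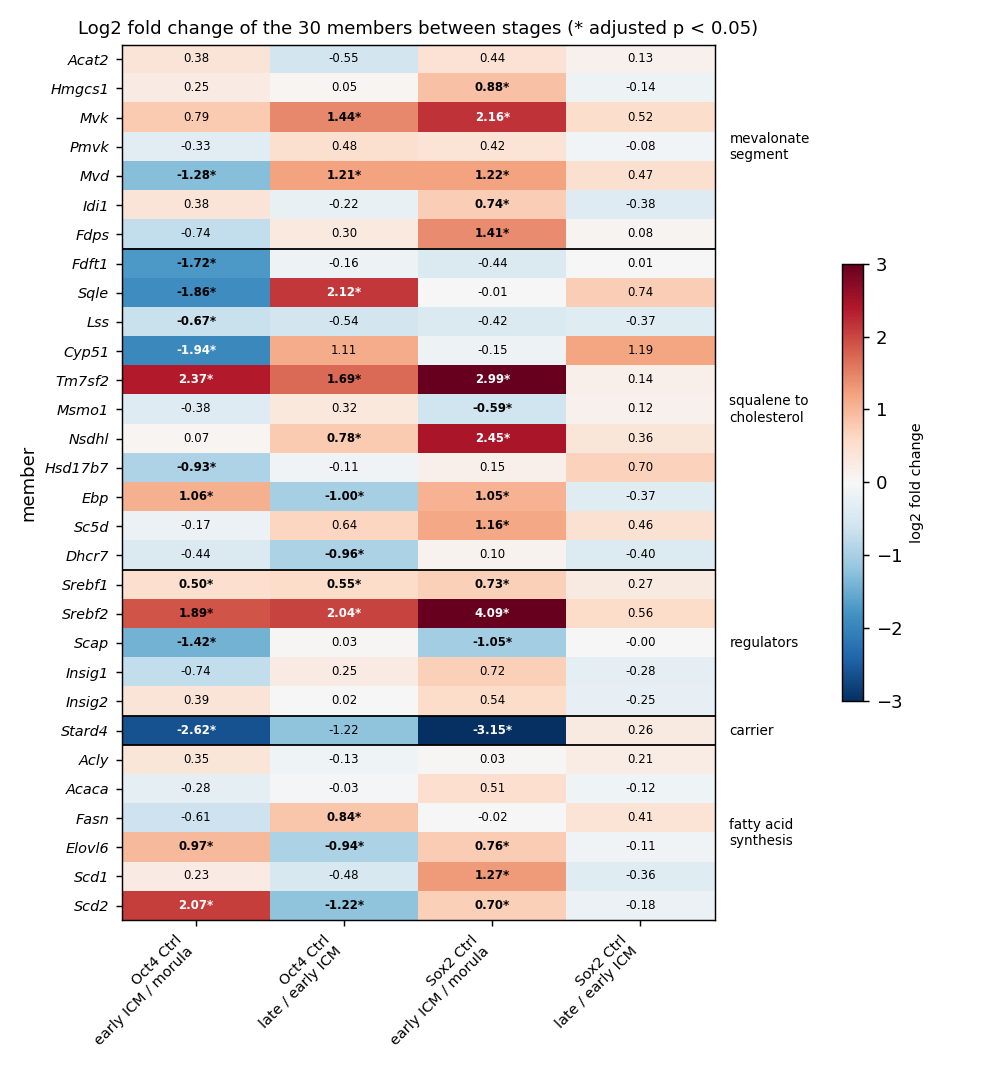
Log2 fold change of each of the 30 members (rows, grouped by role) between stages in Ctrl embryos (columns), from edgeR with 8 embryos per group. Red is higher and blue lower in the later stage, and a star marks an adjusted p under 0.05: Srebf2 and Tm7sf2 are deep red and Stard4 and Scap blue from morula to early ICM in both lines, and the column of late against early ICM in Sox2 Ctrl has no star.

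Loss of Oct4 was read against Oct4 Ctrl at each stage. In late ICMs the sterol carrier Stard4 was 13.8 to 79.1 CPM in KO against 0 to 8.44 CPM in Ctrl. The sterol enzymes Dhcr7 and Ebp and the brake on SREBP activation (Insig1) were also higher, whereas both SREBP genes and Fasn were lower. Of the 30 members, 5 passed higher and 4 lower in late ICMs, beside 16.0% of all genes passing higher and 15.7% passing lower. Called were 4 higher and 2 lower, beside 9.25% and 8.85% of all genes. The median log2 fold change of the members was 0.015, and that of all genes tested was -0.006.

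The carrier Stard4 had 33.7, 13.8, 22.4, 65.1, 30.04, 54.0, 79.1 and 39.5 CPM in the 8 Oct4 KO late ICMs. In the 8 Ctrl late ICMs its lowest, median and highest levels were 0, 2.71 and 8.44 CPM. Every KO embryo was thus above every Ctrl embryo, with a log2 fold change of 3.54 ± 0.54 (adjusted p = 6.66e-08). The KO mean was 42.2 ± 22.2 CPM, and that of Oct4 Ctrl morulae was 52.2 ± 20.2 CPM, a pair that was not tested against each other. The 8 Ctrl late ICMs held 19 UMIs of Stard4 in all and the 8 KO late ICMs held 241.

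Dhcr7, which reduces 7-dehydrocholesterol to cholesterol, had a lowest, median and highest level of 76.3, 114 and 129 CPM in Oct4 KO late ICMs and 24.1, 32.6 and 59.6 CPM in Ctrl. The groups did not overlap, and the log2 fold change was 1.54 ± 0.24 (adjusted p = 1.75e-07). Ebp, the sterol isomerase some steps before it, had 35.4, 125 and 397 CPM in KO and 39.6, 66.4 and 129 CPM in Ctrl. The groups of Ebp overlapped, 2 KO embryos (327 and 397 CPM) lay far above the rest, and the log2 fold change was 1.16 ± 0.29 (adjusted p = 0.00101). Ebp is X-linked, and 2 of 8 KO and 5 of 8 Ctrl late ICMs had at least 10 UMIs of 4 Y-linked genes. With embryo sex as a covariate the log2 fold change of Ebp was 0.87 (adjusted p = 0.00383), so that Ebp still passed but was no longer called. Its adjusted p ran from 0.0002 to 0.016 over 9 alternatives. Sc5d, the desaturase that acts between Ebp and Dhcr7, was 9.90 ± 3.53 CPM in KO and 11 ± 7.07 CPM in Ctrl and did not pass (-0.17 ± 0.37, adjusted p = 0.779).

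Insig1, whose protein retains SCAP and the SREBPs in the endoplasmic reticulum and is itself an SREBP target, had a lowest, median and highest level of 42.9, 149 and 443 CPM in Oct4 KO late ICMs and 23.4, 53.9 and 104 CPM in Ctrl. All but 1 of the 8 KO embryos were above the Ctrl median, and the log2 fold change was 1.57 ± 0.35 (adjusted p = 0.000211). Without the embryo at 443 CPM, left out after seeing the data, it was 1.13 (adjusted p = 0.0075), and 8 members rather than 6 were called, with Sqle and Hsd17b7 added.

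The SREBP genes themselves were lower than in Ctrl. Srebf1 had 34.9, 44.1 and 66.0 CPM in Oct4 KO late ICMs and 50.4, 75.6 and 135 CPM in Ctrl, with all 8 KO embryos below the Ctrl median (log2 fold change -0.78 ± 0.21, adjusted p = 0.00224). Srebf2 had 74.1, 43.0, 0, 3.18, 8.76, 12.7, 71.7 and 5.10 CPM in the 8 KO embryos, while the 8 Ctrl embryos ran from 23.4 to 112 CPM. Of the 8 KO embryos, 5 were below every Ctrl embryo and the other 3 lay within the Ctrl range. The log2 fold change was -1.12 ± 0.38 (adjusted p = 0.016), and it did not pass in DESeq2 (adjusted p = 0.0509), nor with only the 2 groups in the fit (adjusted p = 0.118), in a range of 0.00127 to 0.166 over 9 alternatives. Mean Srebf2 was 27.3 ± 31.1 CPM in KO, 59.5 ± 32.8 CPM in Ctrl and 25.5 ± 10.5 CPM in Oct4 MWT late ICMs. KO and MWT were not tested against each other, so a low late level was not particular to the loss of Oct4.

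Sqle, an SREBP2 target that makes the first oxygenated sterol precursor, was uneven among the same KO embryos. It had 30.3 and 71.7 CPM in the 2 KO embryos with the highest Srebf2 and 1.59 to 8.92 CPM in the other 6, against 4.86 to 52.1 CPM in Ctrl. It did not pass in late ICMs (-0.98 ± 0.42, adjusted p = 0.0668), though it was called lower with total UMIs alone as library size, with thinned counts, and without the KO embryo of highest Insig1. These embryos were picked out after their values were seen.

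Fasn, the fatty acid synthase, had 12.7, 57.7 and 70.8 CPM in Oct4 KO late ICMs and 43.8, 78.8 and 160 CPM in Ctrl (log2 fold change -0.80 ± 0.28, adjusted p = 0.0206), and the other 5 genes of fatty acid synthesis did not pass. Of the mevalonate segment only Pmvk (phosphomevalonate kinase) passed among its 7 genes, with 33.8, 54.8 and 99.7 CPM in KO and 18.4, 40.7 and 60.5 CPM in Ctrl (0.68 ± 0.23, adjusted p = 0.0182). Tm7sf2 had 7 UMIs over 8 KO embryos and 24 over 8 Ctrl embryos, a log2 fold change of -1.69 ± 0.67 (adjusted p = 0.0418), which did not pass under 4 of 9 alternatives (adjusted p up to 0.12).

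**Figure D2:**
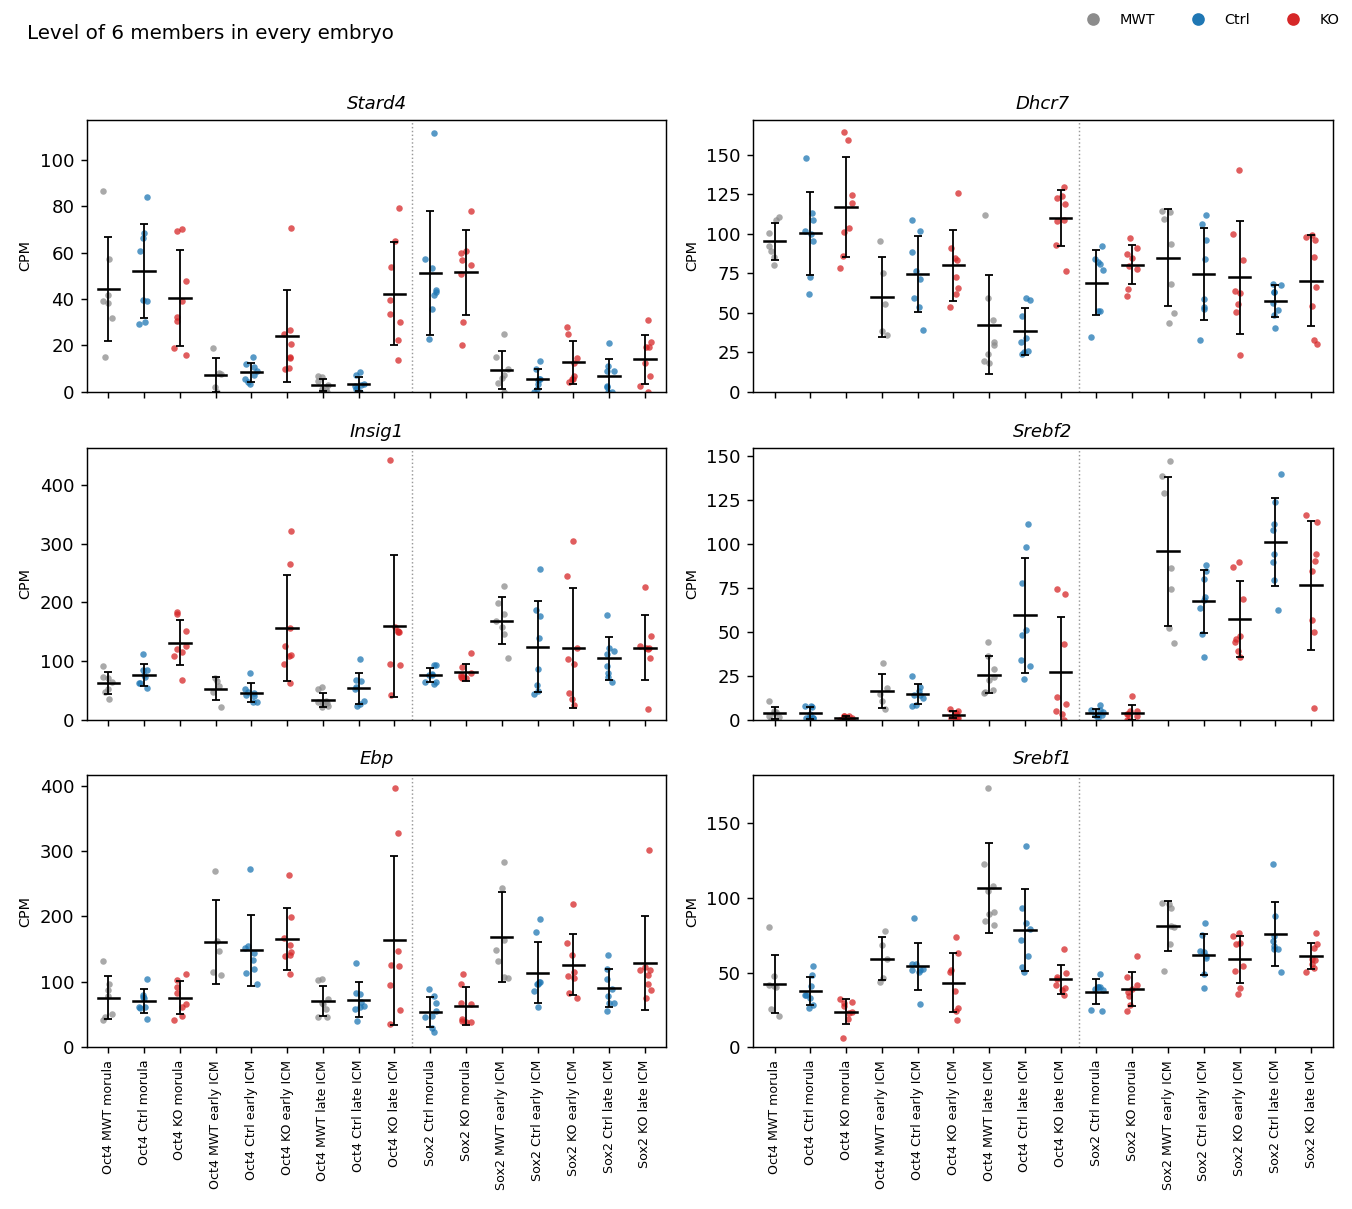
Level in CPM (vertical axes, from 0) of Stard4, Dhcr7, Insig1, Srebf2, Ebp and Srebf1 in every embryo of the 16 groups (horizontal axes), with grey MWT, blue Ctrl and red KO points and bars for the mean ± SD. In Oct4 KO late ICMs Stard4 (13.8 to 79.1 CPM) and Dhcr7 (76.3 to 129 CPM) lie above all Ctrl late ICMs of the line, and 1 embryo stands at 443 CPM in Insig1.

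In early ICMs without Oct4 the same carrier and the same brake were higher, and Srebf2 was lower with no overlap. Dhcr7 and Ebp, which were higher in late KO ICMs, were near their Ctrl level. Of the 30 members, 4 passed higher and 3 lower, beside 10.1% and 10.9% of all genes, and 2 were called higher and 1 lower, beside 4.77% and 6.11%. The median log2 fold change of the members was -0.169, and that of all genes was 0.014.

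Insig1 had a lowest, median and highest level of 62.1, 117 and 322 CPM in Oct4 KO early ICMs and 30.1, 44.1 and 79.8 CPM in Ctrl. All 8 KO embryos were above the Ctrl median, and the log2 fold change was 1.76 ± 0.35 (adjusted p = 5.88e-05). Srebf2 had 1.00, 2.41 and 6.21 CPM in KO and 7.67, 14.1 and 25.0 CPM in Ctrl, so that every KO embryo was below every Ctrl embryo (-2.27 ± 0.58, adjusted p = 0.00213). Scap had 20.6, 42.0 and 56.0 CPM in KO and 20.2, 26.4 and 39.2 CPM in Ctrl (0.58 ± 0.17, adjusted p = 0.00758).

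Stard4 had 10.0, 17.9 and 70.6 CPM in Oct4 KO early ICMs and 3.63, 8.16 and 15 CPM in Ctrl (1.49 ± 0.46, adjusted p = 0.0115). This call rested on few molecules and on the KO embryo at 70.6 CPM. Without that embryo, left out after seeing the data, the log2 fold change was 1.02 and did not pass (adjusted p = 0.113), in a range of 0.00574 to 0.599 over 11 alternatives.

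Among the enzymes, Acat2, the thiolase that joins the first 2 acetyl-CoA units, had 8.02, 15.7 and 24.6 CPM in Oct4 KO early ICMs and 21.1, 31.9 and 48.1 CPM in Ctrl, and all 8 KO embryos were below the Ctrl median (-0.99 ± 0.23, adjusted p = 0.000762). Acat2 did not pass under 2 of 11 alternatives, both on only the embryos that share replicate numbers (adjusted p up to 0.277). Hsd17b7 fell from 11.8 ± 2.86 to 6.03 ± 2.48 CPM (-0.94 ± 0.35, adjusted p = 0.0447). The sterol methyl oxidase Msmo1 rose from 38.2 ± 10.1 to 69.1 ± 24.8 CPM (0.86 ± 0.24, adjusted p = 0.00558). Dhcr7 was 80.0 ± 22.5 CPM in KO and 74.7 ± 24.0 CPM in Ctrl (0.10 ± 0.22, adjusted p = 0.807), and Ebp was 165 ± 47.1 and 148 ± 53.9 CPM (0.16 ± 0.27, adjusted p = 0.746). None of the 6 fatty acid genes passed in edgeR, and DESeq2 called none of them. At an unadjusted p under 0.05, 1 of them was lower, beside 2319 of all 14053 genes.

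In morulae without Oct4 no member passed in edgeR and none was called by edgeR or DESeq2, beside 0.804% of all genes called by edgeR in either direction. At an unadjusted p under 0.05, 3 members were higher and 6 lower, beside 834 and 873 of all 14053 genes. Insig1 was 132 ± 38.4 CPM in KO and 76.1 ± 18.2 CPM in Ctrl, with 7 of 8 KO embryos above the Ctrl median (log2 fold change 0.80 ± 0.33, adjusted p = 0.255, and 0.00821 to 0.306 over 9 alternatives). Under 2 of these alternatives Insig1 passed, with log2 fold changes of at most 0.93 over all 9. Srebf1 was 24.0 ± 8.47 and 37.7 ± 9.68 CPM, with 8 of 8 KO embryos below the Ctrl median (-0.63 ± 0.22, adjusted p = 0.154). Srebf2 held 7 UMIs over the 8 KO morulae and 29 over the 8 Ctrl morulae (-1.88 ± 0.87, adjusted p = 0.347). Cell-type markers moved in the same morulae. The trophectoderm sum was 829 ± 270 CPM in Ctrl (497 to 1140) and 1391 ± 269 CPM in KO (798 to 1695), with 1 of 10 passing higher, and the epiblast sum was 3564 ± 252 CPM (3136 to 3916) and 2736 ± 161 CPM (2510 to 2931), with 3 of 10 passing lower. For primitive endoderm the sum was 957 ± 116 and 1072 ± 170 CPM, with 1 of 8 passing higher. Their part in these values was not tested.

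Markers of other cell types moved with the loss of Oct4. The summed level of the 10 trophectoderm markers was 593 ± 272 CPM in Ctrl late ICMs (183 to 949) and 2827 ± 660 CPM in KO (1461 to 3394), and 10 of 10 passed higher with none at a median of 0 in KO. In early ICMs the sums were 549 ± 348 CPM (270 to 1339) and 1181 ± 279 CPM (759 to 1514), 4 of 10 passed higher and 1 lower, and Elf5 had a median of 0 in KO. The epiblast sum was 4895 ± 820 CPM in Ctrl (3728 to 6333) and 1756 ± 601 CPM in KO late ICMs (748 to 2469), and 10 of 10 passed lower with Pou5f1 at a median of 0. In early ICMs it was 4736 ± 624 CPM (3898 to 5747) and 3071 ± 347 CPM (2707 to 3588), and 8 of 10 passed lower with Gdf3 at a median of 0 in KO. The primitive endoderm sum was 737 ± 411 CPM in Ctrl (293 to 1568) and 1705 ± 376 CPM in KO late ICMs (1043 to 2236), where Gata6, Dab2 and Lrp2 passed higher, Gata4, Sox17, Pdgfra and Lama1 passed lower, and Foxa2, Sox7, Gata4 and Sox17 had a median of 0. In early ICMs it was 761 ± 114 CPM (601 to 897) and 1310 ± 279 CPM (885 to 1741), with Col4a1, Dab2 and Lrp2 passing higher, Sox17 and Pdgfra lower, and Sox17, Sox7 and Foxa2 at a median of 0 in KO. The part of this cell make-up in the values of Stard4, Dhcr7, Insig1 and the other members was not tested. The 6 fatty acid genes summed to 792 ± 91.8 CPM in Ctrl and 809 ± 141 CPM in KO late ICMs. The 11 genes from squalene to cholesterol summed to 309 ± 51.2 and 483 ± 142 CPM, yet 6 of the 11 had a log2 fold change below 0 (median -0.169), and only Ebp and Dhcr7 among them passed higher.

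**Figure D3:**
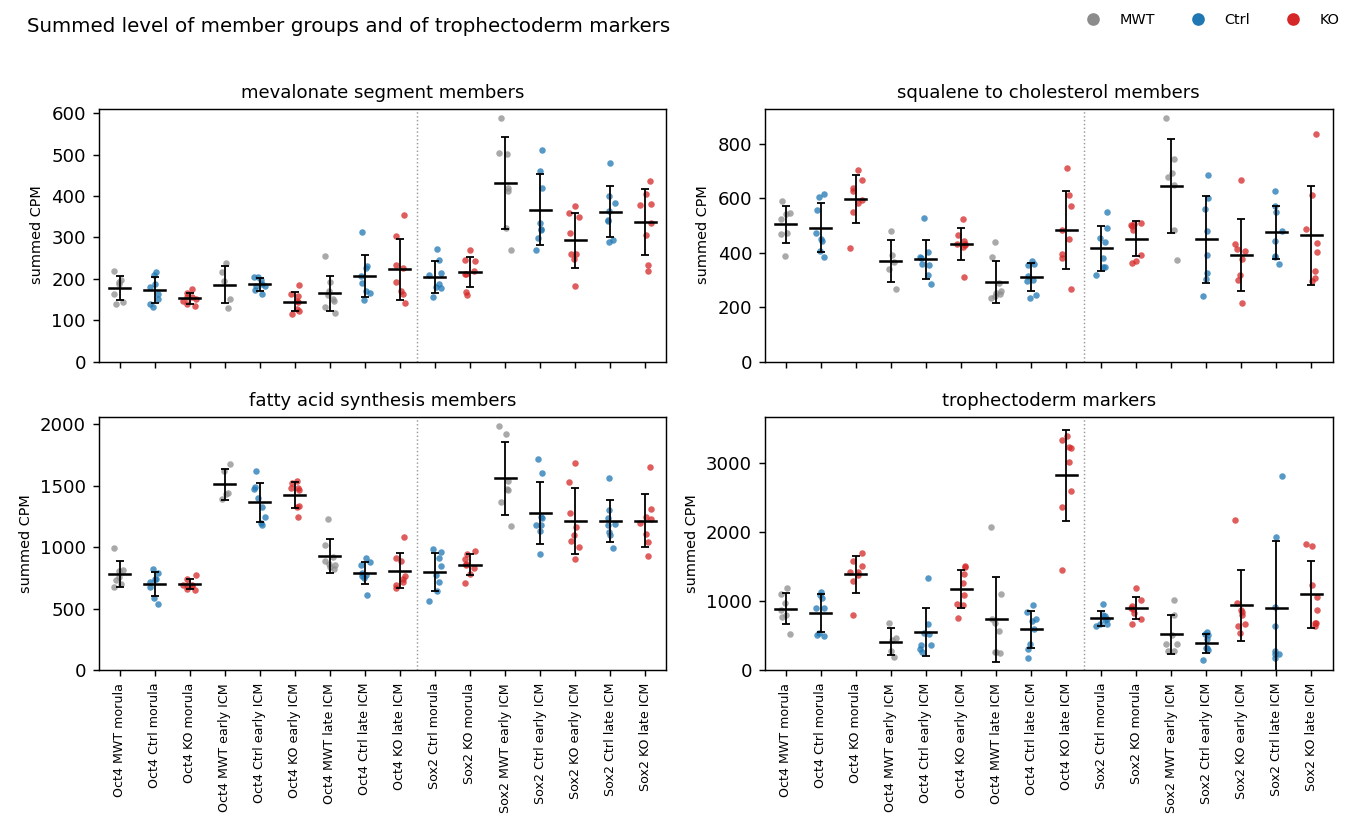
Summed CPM (vertical axes, from 0) of the 7 mevalonate genes, the 11 squalene-to-cholesterol genes, the 6 fatty acid genes and 10 trophectoderm markers in each embryo (points) of the 16 groups (horizontal axes), with bars for the mean ± SD. Within the Oct4 line the fatty acid sum is highest in early ICMs (1366 ± 157 CPM in Ctrl), and the trophectoderm sum in Oct4 KO late ICMs (1461 to 3394 CPM) lies above all Oct4 Ctrl late ICMs.

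Loss of Sox2 was read against Sox2 Ctrl in the same way. In early ICMs the enzymes Idi1 and Lss were lower, and in late ICMs Hsd17b7, Fasn and Acly were lower. No member passed in the upward direction at either stage, and none was called. In morulae no member passed.

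In early ICMs 0 members passed higher and 2 lower, beside 3.22% and 3.82% of all genes, and 0 were called in either direction by edgeR or DESeq2, beside 1.57% called higher and 1.69% lower. At an unadjusted p under 0.05, 1 member was higher and 8 were lower, beside 1293 and 1457 of all 14053 genes. A log2 fold change below 0 was found in 26 of the 30 members, beside 7162 of all genes, with a median of -0.232 against -0.011 for all genes. Idi1, which interconverts the isoprenoid building blocks, had 26.5, 38.6 and 66.9 CPM in KO and 30.7, 65.9 and 107 CPM in Ctrl (-0.80 ± 0.24, adjusted p = 0.0216). Lss, which closes the sterol rings, had 10.2, 15.4 and 26.6 CPM in KO and 12.9, 24.9 and 44.7 CPM in Ctrl (-0.73 ± 0.23, adjusted p = 0.0325). In both genes the groups overlapped and 7 of 8 KO embryos lay below the Ctrl median. All 7 mevalonate genes and all 5 regulators had values below 0, yet only Idi1 passed among these 12.

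In late ICMs 0 members passed higher and 3 lower, beside 6.96% and 6.81% of all genes, and 0 were called by edgeR or DESeq2, beside 3.34% and 3.61%. At an unadjusted p under 0.05, 0 were higher and 6 lower, beside 1852 and 1860 of all 14053 genes. With total UMIs alone as library size 2 members were called lower (Cyp51 and Hsd17b7), and with the replicate number as a block, on the embryos that share numbers, 2 were (Cyp51 and Sqle). Hsd17b7 had 5.13, 9.44 and 26.3 CPM in KO and 17.5, 23.1 and 29.3 CPM in Ctrl (-0.95 ± 0.30, adjusted p = 0.0236). Fasn had 12.5, 45.6 and 95.2 CPM in KO and 54.9, 85.1 and 137 CPM in Ctrl (-0.81 ± 0.27, adjusted p = 0.0314). Acly, which supplies cytosolic acetyl-CoA from citrate, had 54.4, 111 and 132 CPM in KO and 99.2, 145 and 207 CPM in Ctrl (-0.45 ± 0.16, adjusted p = 0.0474), and all 8 KO embryos were below the Ctrl median. Fasn was thus lower in late ICMs of both lines.

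The members that were most changed without Oct4 did not pass without Sox2. Stard4 was 12.7 ± 9.13 CPM in Sox2 KO and 5.51 ± 4.37 CPM in Ctrl early ICMs (1.10 ± 0.51, adjusted p = 0.211) and 14.1 ± 10.5 and 6.84 ± 7.25 CPM in late ICMs (0.96 ± 0.51, adjusted p = 0.218). Dhcr7 was 70.3 ± 28.7 and 57.4 ± 9.93 CPM in late ICMs (0.29 ± 0.23, adjusted p = 0.465), and Insig1 was 123 ± 56.3 and 105 ± 36.5 CPM (0.25 ± 0.33, adjusted p = 0.703). Srebf2 was 76.4 ± 36.7 and 101 ± 24.9 CPM (-0.39 ± 0.33, adjusted p = 0.494). Ebp had a late log2 fold change of 0.51 (adjusted p = 0.242) and Srebf1 of -0.31 (adjusted p = 0.342). The late values of these members had the same signs as without Oct4, while Acat2 had 0.29 against -0.23 without Oct4.

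In Sox2 KO morulae no member passed in edgeR and none was called by edgeR or DESeq2, beside 0.00712% of all genes called by edgeR. At an unadjusted p under 0.05, 1 member was higher and 0 lower, beside 322 and 296 of all 14053 genes. The trophectoderm markers summed to 390 ± 139 CPM in Sox2 Ctrl and 940 ± 520 CPM in KO early ICMs, and to 905 ± 970 CPM (173 to 2815) and 1104 ± 484 CPM (646 to 1834) in late ICMs, with 4 of 10 passing higher and none lower at each stage. The epiblast markers summed to 3798 ± 618 CPM (3166 to 5110) in Sox2 Ctrl and 3337 ± 270 CPM (2972 to 3730) in KO early ICMs, with 5 of 10 passing lower, and to 4766 ± 720 CPM (3973 to 6098) and 3588 ± 723 CPM (2863 to 4743) in late ICMs, with 6 of 10 passing lower. Of the 8 primitive endoderm markers tested, Dab2 and Lrp2 were called higher in early ICMs, where the sum was 666 ± 220 CPM in Ctrl and 892 ± 89.5 CPM in KO, and 1 passed higher and 1 lower in late ICMs. Without the 2 Sox2 Ctrl late ICMs of highest trophectoderm sum, left out after seeing the data, 0 members were called, and Stard4 had a log2 fold change of 1.65 (adjusted p = 0.0563). On only the embryos that share replicate numbers its sign turned, at -0.12 without and -0.10 with the block. The part of the markers in these values was not tested.

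**Figure D4:**
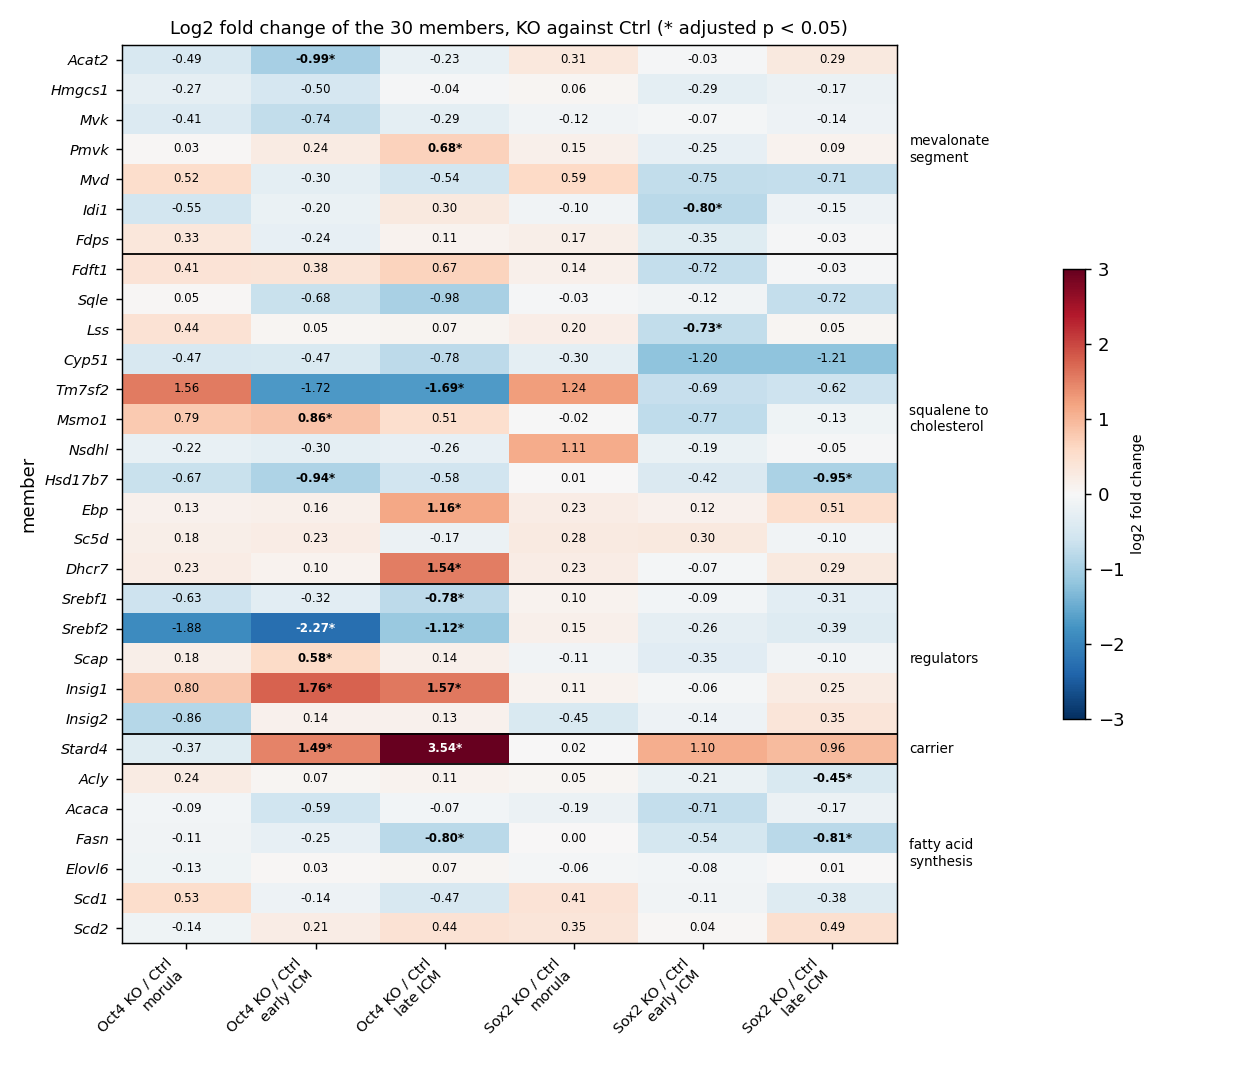
Log2 fold change of each of the 30 members (rows, grouped by role) in KO against Ctrl for each line and stage (columns), from edgeR with 8 embryos per group. Red is higher and blue lower in KO, and a star marks an adjusted p under 0.05: Stard4 reaches 3.54 in Oct4 late ICMs, Srebf2 is at -2.27 in Oct4 early ICMs, and neither morula column has a star.

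Whether the loss of Oct4 and the loss of Sox2 differed in effect was tested as an interaction across the 12 Ctrl and KO groups. The Ctrl levels of some members, such as Srebf2 and Mvk in early ICMs, differed between the lines. A difference in effect cannot be told apart from line or collection. In early ICMs 5 of 30 members passed, beside 8.12% of all genes, in either direction. The Oct4 effect minus the Sox2 effect was 1.63 ± 0.35 for Msmo1 (adjusted p = 0.000944), 0.93 ± 0.24 for Scap (adjusted p = 0.00593), 1.82 ± 0.48 for Insig1 (adjusted p = 0.00734), -0.96 ± 0.32 for Acat2 (adjusted p = 0.0433) and -2.01 ± 0.68 for Srebf2 (adjusted p = 0.0489), all on the log2 scale. Msmo1 was 24.9 ± 13.4 CPM in Sox2 KO and 41.4 ± 18.1 CPM in Sox2 Ctrl early ICMs, the opposite side to its rise without Oct4, though it did not pass in the Sox2 line alone. Stard4 differed by 0.395 in early ICMs and did not pass.

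In late ICMs 2 of 30 members passed this interaction, beside 8.67% of all genes. Dhcr7 differed by 1.25 ± 0.33 (adjusted p = 0.00842) and Stard4 by 2.59 ± 0.78 (adjusted p = 0.023). Both were called, while with thinned counts only 1 member was. Insig1 differed by 1.33 ± 0.48 and did not pass (adjusted p = 0.0681). The effect of Oct4 loss itself differed between late and early ICMs in 1 member, beside 4.46% of all genes: Dhcr7, by 1.44 ± 0.33 (adjusted p = 0.00356). Stard4 differed by 2.05 ± 0.75 between these stages and did not pass in edgeR (adjusted p = 0.101). For Sox2 the effect differed between the stages in 0 members in edgeR and in 0 in DESeq2, beside 0.0427% of all genes. At an unadjusted p under 0.05, 1 member was higher and 0 lower, beside 829 and 665 of all 14053 genes.

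MWT embryos, whose mothers kept the gene, were compared with Ctrl at the same stage. Ctrl embryos lacked the maternal copy, and the inhibitor is not in the sample labels of the Oct4 MWT early ICMs, so at that stage the maternal deletion and the inhibitor cannot be told apart. These fits held all 123 embryos and 13923 genes. In the Oct4 line no member passed in edgeR in morulae, early or late ICMs, beside 0.0646%, 0.373% and 0.797% of all genes called, and DESeq2 called 0 at each stage. With the replicate block, on the morulae that share numbers, 1 member was called. At an unadjusted p under 0.05, 1 member was higher and 0 lower in morulae, 1 and 0 in early ICMs, and 3 and 3 in late ICMs. Of all 13923 genes, 444 and 561 were higher and lower by this rule in morulae, 672 and 654 in early ICMs, and 986 and 953 in late ICMs. Stard4 was 2.93 ± 2.72 CPM in Oct4 MWT and 3.44 ± 2.91 CPM in Ctrl late ICMs, and Dhcr7 was 42.4 ± 31.3 and 38.3 ± 14.8 CPM. Srebf2 was 25.5 ± 10.5 CPM in MWT and 59.5 ± 32.8 CPM in Ctrl late ICMs, with 8 of 8 MWT embryos below the Ctrl median (-1.20 ± 0.37, adjusted p = 0.0763). Primitive endoderm markers differed between the same groups, with a summed level of 253 ± 130 CPM in MWT (106 to 456) and 737 ± 411 CPM in Ctrl (293 to 1568), and of the 8 tested 4 were called lower and 8 were below 0. Their part in these values was not tested.

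In the Sox2 line 2 of 30 members were called in MWT early ICMs, both higher, beside 2.58% of all genes called in either direction. The count ran from 0 to 4 over 9 alternatives and was 1 with total UMIs alone, no filter on low counts, thinned counts or embryo sex as a covariate. Sqle had 54.7, 112 and 204 CPM in 7 MWT embryos and 11, 47.8 and 74.1 CPM in 8 Ctrl embryos (1.22 ± 0.34, adjusted p = 0.0156). Cyp51 had 8.71, 15.9 and 49.8 CPM and 2.19, 8.77 and 14.5 CPM (1.35 ± 0.44, adjusted p = 0.0461). Of the 30 members, 23 had a log2 fold change above 0, beside 6618 of all 13923 genes, with a median of 0.398 against -0.020 for all genes. All 30 members summed to 3033 ± 539 CPM in MWT (n = 7) and 2403 ± 511 CPM in Ctrl. The primitive endoderm markers summed to 1267 ± 172 CPM in MWT (1044 to 1471) and 666 ± 220 CPM in Ctrl (227 to 879), with no overlap, and 2 of the 8 tested were called higher. Of the 10 epiblast markers 2 passed higher and 2 lower, and of the 10 trophectoderm markers 1 passed higher and 0 lower. Their part in these values was not tested.

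Genes next to these in sterol and fatty acid metabolism were counted in 4 lists chosen by role, with the passing counts given as higher and lower in KO. Of all genes tested, 10.1% and 10.9% passed higher and lower in Oct4 early, 16.0% and 15.7% in Oct4 late, 3.22% and 3.82% in Sox2 early and 6.96% and 6.81% in Sox2 late ICMs, and nothing particular to the lists is read from their counts. At an unadjusted p under 0.05, 1293 and 1457 of all 14053 genes were higher and lower in Sox2 early ICMs, and 1852 and 1860 in Sox2 late ICMs. Of 9 other genes of sterol synthesis and SREBP processing, 0 and 1 passed in Oct4 early ICMs, 1 and 1 in Oct4 late ICMs, and none in the Sox2 line in edgeR (0 and 0 at an unadjusted p under 0.05 in early and 1 and 3 in late ICMs). Mbtps1, the site-1 protease that cleaves the SREBPs, was lower without Oct4 in early ICMs (47.3 ± 11.7 against 83.2 ± 10.2 CPM, -0.81 ± 0.13, adjusted p = 1e-06) and in late ICMs (66.5 ± 15 against 107 ± 19.1 CPM, -0.67 ± 0.13, adjusted p = 1.81e-05). Tmem97, a sterol-regulated membrane protein, was higher in Oct4 KO late ICMs (0.49 ± 0.18, adjusted p = 0.0325).

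Of 15 genes of sterol transport, esterification and efflux, 1 and 4 passed in Oct4 early, 3 and 2 in Oct4 late, 0 and 2 in Sox2 early and 3 and 2 in Sox2 late ICMs. Npc2, which hands lysosomal cholesterol to its exporter, was 554 ± 103 CPM in Oct4 KO and 150 ± 34.3 CPM in Ctrl late ICMs with no overlap (1.9 ± 0.14, adjusted p = 1.84e-21), and 375 ± 46.7 against 229 ± 45.5 CPM in Sox2 late ICMs (0.72 ± 0.13, adjusted p = 2.5e-05). Soat1, which esterifies cholesterol for storage, was higher in late ICMs of both lines (2.03 ± 0.33 and 1.38 ± 0.32). Gramd1a, which moves cholesterol from the plasma membrane to the endoplasmic reticulum, was 1.59 ± 1.97 CPM in Oct4 KO and 30.7 ± 11.8 CPM in Ctrl late ICMs (-4.15 ± 0.52, adjusted p = 2.54e-10) and was lower in the Sox2 line too (-1.32 ± 0.42 in early and -1.56 ± 0.40 in late ICMs). Apoe, a lipoprotein component, was lower in Oct4 KO early ICMs (54.7 ± 37.7 against 180 ± 54.7 CPM, -1.70 ± 0.29).

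Of 22 other genes of fatty acid synthesis, elongation and desaturation 19 were tested, and 1 and 6 passed in Oct4 early, 2 and 5 in Oct4 late, 1 and 1 in Sox2 early and 3 and 5 in Sox2 late ICMs. Tecr, the reductase that completes each elongation cycle, was lower in all 4 comparisons (-0.78 ± 0.14, -0.81 ± 0.14, -0.49 ± 0.13 and -0.60 ± 0.13). Mlxipl, a carbohydrate-responsive activator of lipid synthesis genes, was lower without Oct4 and higher without Sox2 in both early and late ICMs. It was 2.28 ± 3.51 against 9.42 ± 3.11 CPM in Oct4 early ICMs (-2.02 ± 0.54, adjusted p = 0.00335) and 71.3 ± 14.1 against 7.09 ± 4.88 CPM in Sox2 late ICMs, where the groups did not overlap (3.31 ± 0.39, adjusted p = 1.12e-10). The log2 fold changes were -2.21 ± 0.73 in Oct4 late (adjusted p = 0.0135) and 2.13 ± 0.37 in Sox2 early ICMs (adjusted p = 1.75e-05). The Oct4 effect minus the Sox2 effect was -4.15 ± 0.65 in early ICMs (adjusted p = 1.64e-06) and -5.52 ± 0.82 in late ICMs (adjusted p = 3.51e-07). Elovl7 was lower (-1.88 ± 0.27) and Hacd3 higher (1.27 ± 0.20) in Oct4 KO early ICMs, both without overlap.

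Of 17 genes of fatty acid oxidation 15 were tested, and 1 and 2 passed in Oct4 early, 5 and 0 in Oct4 late, 0 and 0 in Sox2 early and 4 and 0 in Sox2 late ICMs, the zero of Sox2 early ICMs being from edgeR with 3 higher and 0 lower at an unadjusted p under 0.05. Acadl, a long-chain acyl-CoA dehydrogenase, was higher in late ICMs of both lines, at 261 ± 68.9 against 115 ± 35.2 CPM without Oct4 (1.20 ± 0.17, adjusted p = 1.1e-08) and at 494 ± 122 against 204 ± 78.9 CPM without Sox2 (1.28 ± 0.16, adjusted p = 2.01e-09). Acaa2, a mitochondrial thiolase, was lower in Oct4 KO early ICMs (22.6 ± 12.9 against 158 ± 35.8 CPM, -2.80 ± 0.26, adjusted p = 1.47e-15).

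Embryos of the same group also differed from each other in a shared way. Each gene's log2 CPM was centred on its group, and pairs of genes with a mean of at least 10 UMIs were correlated over the 123 embryos, which share library preparation and depth within an embryo. The 27 members that reached this level (all but Cyp51, Tm7sf2 and Insig2) formed 351 pairs with a median Pearson r of 0.163, against 0.001 over 28785078 pairs of 7588 genes. An r of at least 0.3 was reached by 61 of the 351 pairs (17.4%) and by 1.64% of all pairs. The highest values were 0.59 between Sqle and Srebf2, 0.57 between Fdft1 and Msmo1, 0.53 between Hmgcs1 and Srebf2 and 0.52 between Fdft1 and Insig1. The lowest was -0.26, between Sc5d and Elovl6. The 16 enzymes of the sterol chain that reached the level formed 120 pairs with a median of 0.177, of which 28 (23.3%) reached 0.3. These values describe the embryos at hand, and genes are not independent replicates.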

How the data were processed

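Transcriptomes of 123 single embryos or ICMs were deposited as 1 table of whole UMI counts per gene. Per the study's methods, the authors made these counts from 3′-end libraries with UMIs in the reverse transcription primer, sequenced on a NextSeq 500: UMI-tools, poly-A trimming with Cutadapt, alignment to mm10 with TopHat2 (spike-ins with Bowtie2), counting with featureCounts and a correction with TRUmiCount. The authors' annotation was GENCODE vM23, and tool versions were not given in the sources used here. The authors' comparisons used DESeq2 on genes whose share of embryos with a UMI reached 0.5 in some stage, and this rule and these thresholds were applied here, which need not keep exactly the same genes. The 30 members and all other lists were chosen with earlier results of these data known.

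Groups were taken from the sample titles. Counts were fitted with edgeR 4.0.16 (limma 3.58.1, R 4.3.3; TMM, quasi-likelihood, 1 mean per group) over 96 Ctrl and KO embryos (14053 genes) or all 123 embryos (13923 genes). P-values were adjusted by Benjamini-Hochberg over all genes tested in each of 18 comparisons, and the fit was tested on simulated data. Depth was 525755 to 1344035 UMIs per embryo and TMM factors were 0.893 to 1.10, so members under about 10 CPM rest on few molecules per embryo. No 2 embryos of a group agreed within sampling noise (lowest chi-square per degree of freedom 2.63 over 416 pairs).

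Given with values were members called in any KO comparison (6), filled up to 8 by lowest adjusted p (Acat2 and Srebf1). Of the other lists at most 4 genes each were named, by lowest adjusted p in the ICM comparisons; further members were named where they passed. Alternatives were DESeq2 1.42.0, RLE size factors, total UMIs alone, no filter on low counts, thinned counts, 2 groups only, embryo sex from Y-linked UMIs, label sets or replicate numbers as blocks, and left-out embryos.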

Additional observations from a re-analysis of the deposited data

Results flagged for a closer look

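Of 128 sets of embryos (8 named members in 16 groups), 15 held a highest embryo whose gap to the next was above Dixon's 95% critical value for its group size, and chance flags about 1 in 20 such groups. Each value below is in CPM. Insig1 stood at 443 in Oct4 KO late ICM 1-2 (next 159), at 79.8 in Oct4 Ctrl early ICM 3 (next 52.3) and at 113 in Sox2 KO morula 6 (next 89.4). Stard4 stood at 70.6 in Oct4 KO early ICM 18 (next 26.9) and at 112 in Sox2 Ctrl morula 14 (next 57.4). Ebp stood at 272 in Oct4 Ctrl early ICM 3 (next 155), the embryo that was also highest in Insig1, and at 301 in Sox2 KO late ICM 2-8 (next 123). Srebf1 stood at 86.4 in Oct4 Ctrl early ICM 8 and at 174 in Oct4 MWT late ICM 15, and Dhcr7 stood at 112 in Oct4 MWT late ICM 20 (next 59.3). Srebf2 stood at 13.7 in Sox2 KO morula 19 (next 4.73). The 4 embryos singled out in Tm7sf2, at 1.83, 1.04, 3.12 and 3.13 in Oct4 MWT morula 10, Oct4 Ctrl morula 18, Oct4 MWT early ICM 8 and Sox2 Ctrl morula 12, rest on 1 to 3 UMIs each.

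A difference between the effects of Oct4 and Sox2 loss passed edgeR's interaction test in early ICMs for Msmo1 (1.63 on the log2 scale), Insig1 (1.82), Scap (0.93), Acat2 (-0.96) and Srebf2 (-2.01), and in late ICMs for Stard4 (2.59) and Dhcr7 (1.25). The effect of Oct4 loss differed between late and early ICMs for Dhcr7 (1.44). The adjusted p-values of these 8 values stand with the comparison of the lines.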

How the results depend on the processing

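Of 151 recomputed counts of called members 137 stayed within 1.5 times the reported count, and of 448 recomputed log2 fold changes of the 8 named members 411 kept their direction and their side of the threshold. Counts that moved further were as follows. Oct4 KO early ICM went from 3 to 5 with total UMIs alone, Sox2 KO late ICM from 0 to 2 with total UMIs alone, the Oct4-Sox2 difference in late ICM from 2 to 1 with thinned counts, and the late-early difference of Oct4 loss from 1 to 2 with DESeq2. Sox2 MWT early ICM went from 2 to 1 with total UMIs alone, no filter, thinned counts or sex as a covariate. Total UMIs alone shifted the median of all genes by at most 0.101, in Oct4 Ctrl morula to early ICM. Leaving out each Oct4 MWT early ICM in turn gave 0 to 0 called members.

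Embryos share numbers across some groups, and the labels do not say whether the numbers pair them. Correlations of same-numbered embryos ran from -0.261 to 0.272. In comparisons with 3 or more shared numbers, some embryos correlated best with their own number. They were 6 of 8 in Sox2 KO late ICM, and 4 of 8 each in Sox2 KO and Sox2 MWT early ICM. They were 3 of 6 each in Oct4 KO morula and in Oct4 Ctrl morula to early ICM, and 1 of 10 in Oct4 MWT early ICM. In Sox2 KO late ICM 3 of the 4 pairs had an r over 0.1, so a pairing there was not excluded. With the replicate block, on the embryos that share numbers, 5 members were called in Oct4 KO early ICM (5 without the block), 2 in Sox2 KO late ICM, 1 in Oct4 MWT morula and 4 in Sox2 MWT early ICM (0 without). Sox2 morulae, Oct4 KO late ICM and the late stage comparisons shared fewer than 2 numbers, so no block could be fitted.

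The 22 log2 fold changes that changed sign were all of members that had not passed. In thinned counts they were -0.04 (Dhcr7, Oct4 early), -0.22 (Srebf2, Sox2 morula) and 0.05, 0.01 and 0.23 (Insig1, Dhcr7, Acat2, Sox2 early). Among embryos that share numbers, without and with the block, they were -0.43 and -0.41 (Ebp, Oct4 morula), -0.01 and -0.01 (Ebp, Oct4 early), -0.12 and -0.10 (Stard4, Sox2 late), and in Sox2 early 0.15 and 0.14 (Srebf2), 0.57 and 0.46 (Insig1), 0.23 and 0.28 (Dhcr7), 0.17 and 0.18 (Acat2) and 0.05 and 0.02 (Srebf1). Dhcr7 in Sox2 late had -0.07 with the block. The cause was not tested. Depth limits Tm7sf2, Cyp51, Srebf2 in morulae and Stard4 in Ctrl ICMs, which had few UMIs per embryo.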
